A study of Mus musculus with 15 samples.

Results

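Ribosomal protein processed pseudogenes were followed across 15 libraries of polyA RNA from mouse embryonic fibroblasts (MEFs). Members were the genes whose name begins with Rpl or Rps and carries -ps, whose listed biotype contains pseudogene, and whose value lay above 0 in at least 2 of the 15 libraries. They were thus chosen by name, biotype and detection in these libraries, so that a member is above 0 is no finding. Of 298 names of that form, 8 were listed as protein coding and 290 as pseudogenes. Of these 290, 118 were listed at 0 in every library, 9 lay above 0 in exactly 1 library, and 163 were members, out of 54495 genes in the table. The 9 just outside the rule had 1 read each (0.0524 to 0.202 FPKM), and the 10 members above 0 in exactly 2 libraries had 1 to 3 reads in each of them (0.0656 to 0.266 FPKM). FPKM is fragments per kilobase of listed gene length, scaled to a common library size. The 163 members belonged to 51 parent genes on 20 chromosomes, 64 of them copies of small-subunit and 99 of large-subunit proteins. The listed biotype was processed pseudogene for 156 and transcribed processed pseudogene for 7, and their length was 151 to 2871 bases with a median of 478.

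The fibroblasts were taken at e13.5 and kept at 37 °C under 3% O2 and 5% CO2, in DMEM to which 10% fetal bovine serum was added. All mice carried mTR-/- (no telomerase RNA) and Wrn-/- (no Werner syndrome helicase). TM fibroblasts were p53N236S/N236S in addition, and DM fibroblasts were p53WT, so both genotypes share the losses of mTR and Wrn. Telomerase-deficient mice are usually followed over generations, and the groups were G1TM (n = 2), G1DM (n = 2), G3TM (n = 3), G3DM (n = 2), G5TM (n = 3) and G5DM (n = 3). Wild-type and p53S control MEFs, which the design text names, are not analysed here. The labels do not say that replicates came from separate embryos, so p-values measure only the spread between these libraries, which may be technical.

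A processed pseudogene is a copy of a spliced mRNA that was reverse transcribed and inserted elsewhere in the genome, so it has no introns and usually no promoter of its own. Ribosomal protein mRNAs are short, abundant and made in every dividing cell, and mammalian genomes hold many such copies of them. The parent genes encode the proteins of the small and large ribosomal subunits, whose output is tied to growth. A read from a stretch that is the same in parent and copy carries no letters that tell them apart. How reads that align to several places were counted is not given in the sources used here, so each member's level is uncertain to the extent that its sequence is shared.

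The coding stretches of the copies on which the results turn are shown beside those of their parents, 5′ to 3′ on the coding strand. Capitals mark the bases that differ between the copy and the parent, and in the parent's line they mark the bases that differ in any of its copies given here. All are from the GENCODE vM21 transcripts, whose build is GRCm38, and positions count from 1 at the A of the parent's start codon. Rpl38, a large-subunit protein needed for the translation of some Hox mRNAs in mice, and Rpl38-ps2 (chr6:140746960-140747172, minus strand) are shown over the whole coding sequence, because the copy is identical to the parent.
Rpl38: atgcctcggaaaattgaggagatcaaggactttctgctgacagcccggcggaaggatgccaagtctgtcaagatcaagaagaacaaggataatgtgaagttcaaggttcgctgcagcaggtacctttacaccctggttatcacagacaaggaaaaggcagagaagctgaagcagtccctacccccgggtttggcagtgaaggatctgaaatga
Rpl38-ps2: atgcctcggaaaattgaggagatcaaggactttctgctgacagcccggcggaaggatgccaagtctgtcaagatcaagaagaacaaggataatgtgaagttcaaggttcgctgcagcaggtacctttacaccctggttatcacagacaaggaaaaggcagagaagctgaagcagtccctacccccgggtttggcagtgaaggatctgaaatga
Rpl39, a very small protein beside the exit tunnel of the large subunit, and Rpl39-ps (chr15:102635039-102635188, plus strand) are shown because this copy had the largest rise in G3. The copy ends before the parent's last 6 bases and has the substitution T96C.
Rpl39: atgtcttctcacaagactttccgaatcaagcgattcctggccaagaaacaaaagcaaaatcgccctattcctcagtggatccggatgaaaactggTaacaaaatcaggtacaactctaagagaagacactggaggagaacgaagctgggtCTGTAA
Rpl39-ps: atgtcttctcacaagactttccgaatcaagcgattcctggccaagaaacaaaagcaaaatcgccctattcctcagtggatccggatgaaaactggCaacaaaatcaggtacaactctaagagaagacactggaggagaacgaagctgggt
Rps10, a protein of the small-subunit head, is shown with Rps10-ps2 (chr16:20822163-20822282, minus strand) and Rps10-ps1 (chr3:95622636-95622755, plus strand), because Rps10-ps2 had the highest level of all members. In this stretch Rps10-ps2 has T393C, T408C, C437G, A438G and G473A, and Rps10-ps1 has G418A and A438G.
Rps10: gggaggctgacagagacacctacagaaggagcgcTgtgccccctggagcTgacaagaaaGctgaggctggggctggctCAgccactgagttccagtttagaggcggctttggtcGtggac
Rps10-ps2: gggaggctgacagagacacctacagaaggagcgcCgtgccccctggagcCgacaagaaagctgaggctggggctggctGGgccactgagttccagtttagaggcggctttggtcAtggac
Rps10-ps1: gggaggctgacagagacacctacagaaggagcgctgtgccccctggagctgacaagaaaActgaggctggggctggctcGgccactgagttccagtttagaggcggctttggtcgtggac
Rps13, another small-subunit protein, is shown with Rps13-ps1 (chr8:87048034-87048153, plus strand) and Rps13-ps2 (chr7:88530465-88530584, minus strand), because the level of Rps13-ps1 differed most within a group. Rps13-ps1 has T411C and A429G, its only substitutions over the whole coding sequence, and Rps13-ps2 has none in this stretch.
Rps13: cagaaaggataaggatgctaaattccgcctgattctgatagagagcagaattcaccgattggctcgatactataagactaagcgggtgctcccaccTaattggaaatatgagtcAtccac
Rps13-ps1: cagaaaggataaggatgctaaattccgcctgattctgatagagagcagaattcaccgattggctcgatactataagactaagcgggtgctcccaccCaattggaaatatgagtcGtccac
Rps13-ps2: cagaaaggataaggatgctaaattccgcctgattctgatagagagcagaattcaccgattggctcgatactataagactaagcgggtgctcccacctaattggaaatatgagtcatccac
Rpl15, a large-subunit protein, is shown with Rpl15-ps2 (chr9:72060937-72061054, plus strand) and Rpl15-ps3 (chr9:22186102-22186221, minus strand), because Rpl15-ps3 fell in G3TM and both rose in G5TM. Rpl15-ps2 begins 2 bases into the parent's coding sequence and has G15A, T81C and C104T here, whereas Rpl15-ps3 is identical to the parent over all 615 bases.
Rpl15: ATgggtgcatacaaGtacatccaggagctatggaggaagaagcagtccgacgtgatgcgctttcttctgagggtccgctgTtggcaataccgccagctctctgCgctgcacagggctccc
Rpl15-ps2: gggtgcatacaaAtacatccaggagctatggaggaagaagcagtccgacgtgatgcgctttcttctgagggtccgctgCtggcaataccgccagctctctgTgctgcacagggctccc
Rpl15-ps3: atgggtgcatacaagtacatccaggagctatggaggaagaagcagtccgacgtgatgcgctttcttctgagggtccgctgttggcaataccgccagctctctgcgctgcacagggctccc
Rps19, the small-subunit protein that is most often mutated in human Diamond-Blackfan anaemia, and Rps19-ps6 (chr12:110898371-110898490, plus strand) are shown because this copy rose in G3TM and in G5TM. The copy has T273C, G369A and G372A here.
Rps19: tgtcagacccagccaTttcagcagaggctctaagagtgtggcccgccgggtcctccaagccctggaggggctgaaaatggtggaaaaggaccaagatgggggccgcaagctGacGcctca
Rps19-ps6: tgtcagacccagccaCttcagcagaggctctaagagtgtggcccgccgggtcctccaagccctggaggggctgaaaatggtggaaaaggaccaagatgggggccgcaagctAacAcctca
Rpl7a, a large-subunit protein, and Rpl7a-ps5 (chr17:57838686-57838799, minus strand) are shown because the copy rose further than its parent. It has G472A, C480T and T516C here and lacks 6 bases of the parent.
Rpl7a: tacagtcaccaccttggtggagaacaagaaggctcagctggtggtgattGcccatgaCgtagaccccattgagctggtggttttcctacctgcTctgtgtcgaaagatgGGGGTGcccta
Rpl7a-ps5: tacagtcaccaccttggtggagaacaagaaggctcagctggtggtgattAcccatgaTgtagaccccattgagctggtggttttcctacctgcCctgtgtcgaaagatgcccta

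The table's values gave back 17448588 to 29571111 reads per library, and members held 0.0992% to 0.356% of them. Genes of fibroblasts and their matrix (10 markers) summed to 3079 to 6219 FPKM per library. The 3 erythroid markers summed to at most 0.434 FPKM and the 3 endothelial markers to at most 3.92, whereas the 5 macrophage and leukocyte markers ranged from 4.59 to 263 FPKM with the highest sum in G3TM replicate 3. The 4 epithelial markers ranged from 3.69 to 71.7 FPKM and the 3 skeletal muscle markers from 9.58 to 160.1. The G3TM and G5TM libraries (6) differed from the other 9 in genes outside the members, with 44.7 to 73.6 against 1.48 to 3.76 FPKM of mt-Rnr2, 839 to 1692 against 3873 to 4916 FPKM of mt-Co1, and 73.5 to 102 against 0.780 to 1.67 FPKM of Rrp1. Xist was listed at 0 in all G3TM libraries and measured 3.04 and 3.36 FPKM in G3DM, so in G3 sex and genotype cannot be told apart. Xist also varied in the other generations, at 26.9 and 18.1 FPKM in G1TM and 0.00475 and 28.6 in G1DM, and at 0, 2.45 and 3.61 FPKM in G5TM and 4.88, 0.0180 and 0.00967 in G5DM. The part of sex in the G1 and G5 comparisons was not tested. Each comparison that includes G3TM or G5TM spans the division between these 6 libraries and the 9, and the genotype in G3 and G5 cannot be told apart from it.

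Summed over all 163 members, the pseudogenes measured 1786 to 2182 FPKM in G1TM, against 1772 to 2273 FPKM in G1DM. The sum was 3316 to 5737 FPKM in G3TM and 2297 to 2894 FPKM in G3DM, and 4092 to 7459 FPKM in G5TM and 1587 to 3651 FPKM in G5DM. G3TM and G3DM did not overlap, nor did G5TM and G5DM, while the range of G1TM lay inside that of G1DM. Within G5DM, replicate 1 held 3651 FPKM and the other replicates 1683 and 1587. A few copies carried most of the level, and the 12 highest members held 66.2% to 76.6% of the sum in every library. The level is that of the whole culture, so fewer expressing cells and less RNA per cell cannot be told apart.

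Among the copies of small-subunit genes, Rps10-ps2 (ENSMUSG00000099764, chr16:20822145-20822640) was the highest of all members, with a mean of 470.4 FPKM over the 15 libraries. It measured 366 and 469 FPKM in G1TM and 387 and 342 in G1DM, 319, 665 and 597 in G3TM and 576 and 479.6 in G3DM, and 639, 383 and 560.1 in G5TM and 681, 318 and 276 in G5DM. The genotypes overlapped in every generation, and no comparison of Rps10-ps2 passed the test. Rps16-ps2 (ENSMUSG00000060419), an exact copy of the coding sequence of Rps16, was second and did divide the groups. It measured 329, 734 and 669.6 FPKM in G3TM, against 154 and 115 FPKM in G3DM, and 707, 402 and 623 FPKM in G5TM, and 189, 71.6 and 56.3 FPKM in G5DM. Rps2-ps13 averaged 185 FPKM, Rpsa-ps10 130.3 FPKM and Rps13-ps1 91.5 FPKM over the 15 libraries. Their parents encode a protein beside the mRNA entry site (Rps2), the protein also known as the laminin receptor (Rpsa) and a core protein of the small subunit (Rps13).

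Among the copies of large-subunit genes, Rpl17-ps10 averaged 274 FPKM, Rpl14-ps1 238 and Rpl17-ps3 222. Rpl21-ps15 averaged 165 FPKM, Rpl38-ps2 148, Rpl31-ps8 104 and Rpl36a-ps2 74.4. Rpl21-ps15 was the only one of the 12 whose mean was lower in TM than in DM in both G3 and G5. It measured 141, 112 and 107 FPKM in G3TM, against 183 and 169 FPKM in G3DM, and 208, 164 and 109 FPKM in G5TM, and 249, 162 and 147 FPKM in G5DM. The log2 differences of -0.56 in G3 and -0.22 in G5 did not pass the test (adjusted p = 0.154 and 0.472).

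**Figure D1:**
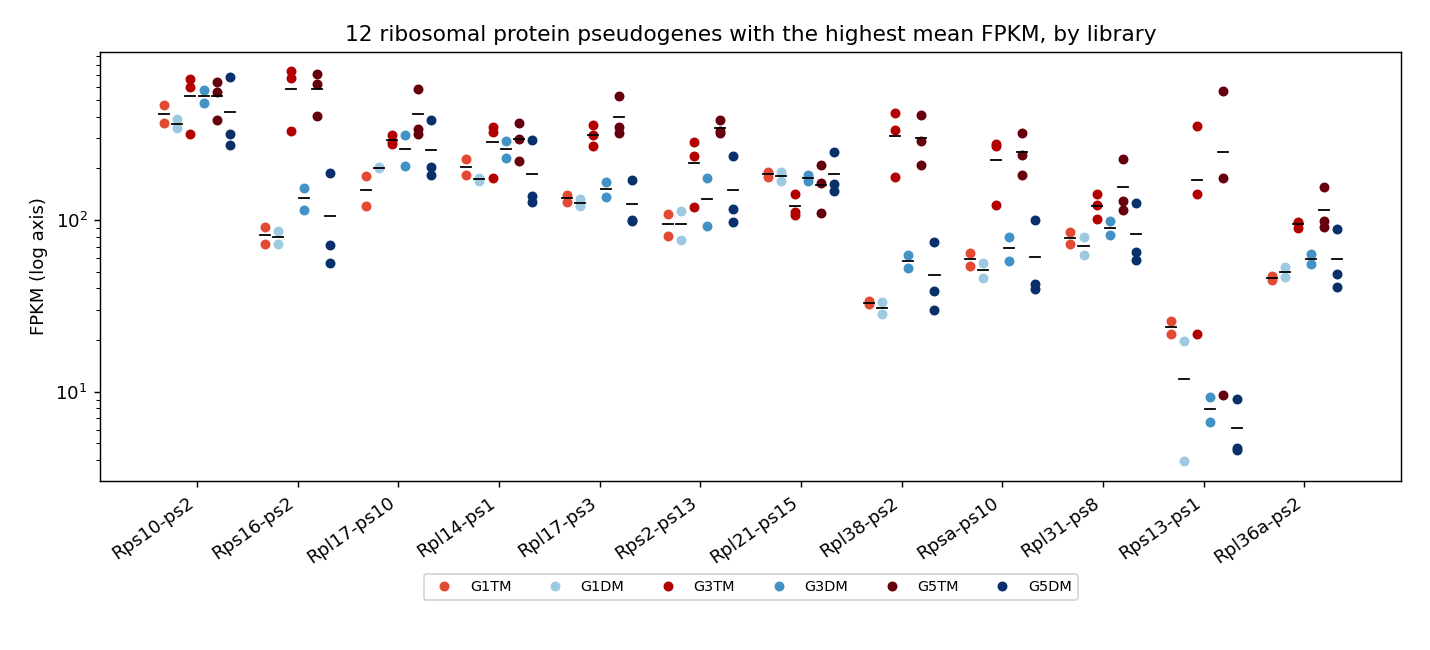
FPKM (log axis) of the 12 pseudogenes with the highest mean, with 1 point per library coloured by group and a bar at each group mean. Rps16-ps2 and Rpl38-ps2 lie higher in every G3TM and G5TM library than in any DM library, whereas the groups of Rps10-ps2 overlap and Rps13-ps1 spreads widely within G3TM and G5TM.

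Set beside its parent, a copy was usually the lower of the pair: 154 of the 163 members lay below their parent in all 15 libraries. 3 members lay above the parent in all 15. Rps10-ps2 was 64.6 to 359 times Rps10, which measured only 6.95, 2.10 and 6.49 FPKM in G5TM and 1.89, 1.66 and 1.71 in G5DM. Rps10-ps1 was 2.02 to 26.5 times Rps10, and Rpl21-ps15 3.61 to 19.8 times Rpl21. FPKM divides by the listed gene length, which covers all exons of the parent (496 bases for Rps10-ps2 and 2311 for Rps10, 483 for Rpl21-ps15 and 3400 for Rpl21), so the ratio of reads is smaller. Counted in reads, copies of Rps10 held 94.0% to 98.7% of the reads of Rps10 and its copies together, and copies of Rpl21 held 36.6% to 74.7%. Copies of Rpl17 held 45.3% to 83.8% of the family's reads. The share was far smaller for copies of Rpl13, at 0.205% to 0.507%.

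In some families the share of reads that fell on copies did not overlap between the genotypes. For Rpl7a, copies held 14.3% to 18.2% in G3TM and 4.81% to 5.66% in G3DM, and 19.0% to 21.3% in G5TM and 4.89% to 8.54% in G5DM. For Rpsa the shares were 5.64% to 6.66% in G3TM and 3.93% to 3.94% in G3DM. In both families the copies' share was higher in TM without overlap in G3 and in G5. In G1 both lay the other way, again without overlap: copies of Rpl7a held 3.97% to 4.51% in G1TM and 6.03% to 6.19% in G1DM, and those of Rpsa 3.67% to 3.88% in G1TM and 3.89% to 3.98% in G1DM. It was lower in TM for Rpl31, the family with the most members (13), at 4.36% to 5.71% in G3TM and 14.7% to 14.8% in G3DM. Rpl21, with 10 members, also had a lower share in G3TM (50.3% to 55.2%) than in G3DM (73.2% to 74.7%). Of all 51 families, the share was higher in TM without overlap in 9 (17.6%) in G1, 13 (25.5%) in G3 and 13 (25.5%) in G5, and lower in 19 (37.3%) in G1, 18 (35.3%) in G3 and 13 (25.5%) in G5. Groups with fewer libraries lie apart more readily, and G1 had the fewest, 2 against 2. These counts are therefore not alike between generations. These shares are descriptions without a test.

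Between the TM and DM fibroblasts of G1, the first generation, no pseudogene passed the test. Of the 163 members, 87 reached 1 FPKM in at least 2 libraries and were tested, and medians are over these 87 on the log2(FPKM + 1) scale, which understates the change of low genes. The filter takes libraries of any group, so it keeps copies that reached 1 FPKM only where they are high. Rps19-ps7, named after its values were seen, had 16, 29 and 16 reads in G3TM, 28, 13 and 17 in G5TM and at most 3 elsewhere. Counts and medians with G3TM or G5TM therefore lean towards such copies, and the filter is no support for them. None of the 87 was higher and none lower (adjusted p under 0.05, limma), against 0.361% higher and 0.811% lower of the 13562 genes tested. Also, 3 members had an unadjusted p under 0.05, where 1696 of the 13562 genes did, and voom on recovered reads called 0. The median difference, TM minus DM, was 0.01 over the members and 0.02 over all genes tested. The lowest adjusted p was that of Rpl15-ps2 (ENSMUSG00000098915), which measured 0.336 and 0.439 FPKM in G1TM, against 6.61 and 5.54 FPKM in G1DM. Both G1TM libraries lay below both G1DM libraries, and the log2 difference was -2.35 ± 0.74 (SE; adjusted p = 0.16). Rpl15-ps3 had the next lowest p, with 4.95 and 6.51 FPKM in G1TM, against 22.8 and 17.9 FPKM in G1DM (log2 -1.67 ± 0.63, SE; adjusted p = 0.253).

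In G3, 32 of the 87 tested copies were higher and 3 were lower in TM than in DM, and 52 did not pass. Over all genes tested, 18.0% were higher and 13.9% lower. The median difference of the members was 0.72, against 0.01 over all genes tested. Copies of small-subunit genes (15 of 38 higher, 1 lower) and of large-subunit genes (17 of 49 higher, 2 lower) had medians of 0.82 and 0.67. Of the 79 cytosolic ribosomal protein genes, 53 were higher, 0 were lower by limma, 0 were lower at an unadjusted p under 0.05, and their median was 1.35. Of the 13562 genes tested, 2603 were lower at an unadjusted p under 0.05. Of 94 other tested pseudogenes with -ps in the name, 30 were higher and 9 lower, with a median of 0.32.

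Rpl39-ps (ENSMUSG00000036305) had the largest rise in G3, at 56.9, 126 and 145 FPKM in G3TM, against 7.60 and 7.20 FPKM in G3DM. Its log2 difference was 3.61 ± 0.43 (SE; adjusted p = 0.000121), and the groups lay far apart. Rps19-ps6 measured 67.8, 139.6 and 119.8 FPKM in G3TM, against 11.1 and 13.48 FPKM in G3DM (log2 2.99 ± 0.39, SE; adjusted p = 0.000203). Rpl7a-ps5 measured 58.9, 117 and 71.2 FPKM in G3TM, against 8.43 and 7.19 FPKM in G3DM (log2 3.18 ± 0.41, SE; adjusted p = 0.000178). Here the parent did not pass: Rpl7a had 149.7, 274 and 269 FPKM in G3TM, against 189 and 187 FPKM in G3DM (log2 0.24 ± 0.32, SE; adjusted p = 0.602). Rps10-ps1 was another copy with all G3TM libraries far above G3DM, at 40.2, 101 and 77.5 FPKM in G3TM, against 8.95 and 7.43 FPKM in G3DM (log2 2.92 ± 0.44, SE; adjusted p = 0.000529). Also among the 8 largest rises were Rpl9-ps7 (log2 2.71) and Rpsa-ps2 (2.39), each past the test. None of these 6 copies is among the exact ones.

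The 3 copies that fell in G3 were low to moderate in level. Rpl26-ps6 (ENSMUSG00000111864, chr9:43217122-43217555), a copy of the gene of a large-subunit protein that binds p53 mRNA in human cells, measured 0.701, 0.626 and 1.21 FPKM in G3TM, against 2.52 and 7.28 FPKM in G3DM (log2 -1.56 ± 0.34, SE; adjusted p = 0.00458). Without G3DM replicate 2 its difference was -0.95 and did not pass (adjusted p = 0.0989, 0.00458 with all libraries). Rpl15-ps3 measured 2.23, 6.41 and 9.21 FPKM in G3TM, against 41.4 and 8.84 FPKM in G3DM (log2 -1.71 ± 0.57, SE; adjusted p = 0.0358), with the lower DM library inside the TM range. Without G3DM replicate 1 the difference was -0.66 (adjusted p = 0.448), and the call was also lost without G3TM replicate 1 (adjusted p = 0.102) or replicate 2 (adjusted p = 0.0615). It was lost too with no filter on low values (adjusted p = 0.111), with a filter of FPKM above 0 in at least 2 libraries (adjusted p = 0.0942) and in a fit of the G3 libraries alone (adjusted p = 0.152). Rps15a-ps4, named after its values were seen because it completes this count, had 0.379, 0.135 and 0.787 FPKM in G3TM, against 1.77 and 1.03 FPKM in G3DM (log2 -0.75 ± 0.24, SE; adjusted p = 0.0324). The count of members called in G3 fell to 18 (17 higher, 1 lower) without G3DM replicate 2. The macrophage and leukocyte marker sum was 4.59, 36.0 and 263 FPKM in G3TM, against 20.8 and 21.5 FPKM in G3DM, and no gene of that list lay apart between the genotypes. Of the 10 fibroblast markers, 9 were lower in G3TM than in G3DM without overlap, where 28.2% of all genes tested were, and Lum had 1.26, 0.943 and 0.914 FPKM in G3TM, against 8.88 and 8.74 FPKM in G3DM. Of the 3 skeletal muscle markers, Des was lower and Myog higher in G3TM without overlap. Myog had 0.737, 61.6 and 15.7 FPKM in G3TM, against 0.453 and 0.104 FPKM in G3DM. Also lower without overlap were 2 of the 3 endothelial markers (Cdh5 and Kdr) and 1 of the 3 erythroid ones (Alas2). No epithelial marker lay apart. The part of these markers in the differences was not tested.

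In G5, 67 of the 87 tested copies were higher in TM than in DM, 1 was lower and 19 did not pass. The shares over all genes tested were 30.3% higher and 28.4% lower, and the median was 1.22 over the members and 0.02 over all genes. Small-subunit copies (29 of 38 higher, median 1.29) and large-subunit copies (38 of 49 higher and 1 lower, median 1.18) made up these counts. The cytosolic ribosomal protein genes had 69 of 79 higher with a median of 1.85, and the other pseudogenes had 43 of 94 higher and 17 lower with a median of 0.45. Without G5TM replicate 1, the library with the highest member sum, 43 members were higher and 1 lower. Markers of cell types moved between the same groups. The epithelial sum was 31.1, 19.1 and 49.6 FPKM in G5TM, against 3.79, 3.69 and 5.21 FPKM in G5DM, and 2 of the 4 markers (Krt8 and Krt18) were higher in G5TM without overlap, where 29.6% of all genes tested were. Epcam and Cdh1, which define epithelia, stayed at or below 0.233 FPKM in both groups. Of the 3 skeletal muscle markers, Myog and Myod1 were higher in G5TM without overlap, with 1.97, 2.87 and 11.0 FPKM of Myog in G5TM, against 0.593, 0.432 and 0.395 FPKM in G5DM, while the muscle sum overlapped at 26.9, 18.6 and 66.1 FPKM in G5TM, against 13.2, 19.6 and 25.3 FPKM in G5DM. Of the 10 fibroblast markers, 5 (Col1a2, Col3a1, Fn1, Dcn and Lum) were lower in G5TM without overlap, where 28.3% of all genes tested were. Lum had 1.08, 1.85 and 1.22 FPKM in G5TM, against 13.8, 31.6 and 34.8 FPKM in G5DM. The macrophage and leukocyte sum was 18.5, 22.7 and 86.9 FPKM in G5TM, against 41.4, 56.9 and 71.4 FPKM in G5DM, with 2 of its 5 markers lower in G5TM without overlap, as were 2 of the 3 endothelial ones. The part of these markers in the members' differences was not tested.

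The largest rise in G5 was that of Rpl15-ps2, at 53.6, 23.6 and 52.4 FPKM in G5TM, against 0.271, 0.603 and 0.170 FPKM in G5DM (log2 4.96 ± 0.61, SE; adjusted p = 5.49e-05). Its sign in G1 was the opposite, where the difference did not pass the test. In G3, Rpl15-ps2 measured 2.23, 6.76 and 5.91 FPKM in G3TM, against 9.78 and 0.169 FPKM in G3DM, where the DM replicates lay on both sides of the TM libraries. Rpl39-ps measured 175, 73.3 and 134 FPKM in G5TM, against 10.3, 4.28 and 4.14 FPKM in G5DM (log2 4.17 ± 0.39, SE; adjusted p = 8.63e-06). Rpl7a-ps5 (ENSMUSG00000071052) had 116, 70.0 and 95.5 FPKM in G5TM, against 10.9, 3.09 and 3.73 FPKM in G5DM (log2 3.92 ± 0.36, SE; adjusted p = 8.16e-06). All G5TM libraries of these 3 copies lay above all G5DM libraries. Rps19-ps6 had 145, 87.7 and 116 FPKM in G5TM, against 17.5, 6.85 and 5.95 FPKM in G5DM (log2 3.52 ± 0.35, SE; adjusted p = 1.26e-05). Rps13-ps1 had 566, 9.53 and 177 FPKM in G5TM, against 9.06, 4.55 and 4.71 FPKM in G5DM (log2 3.90 ± 1.2, SE; adjusted p = 0.014), in which G5TM replicate 2 lay close to the highest G5DM library. Without G5TM replicate 1 the Rps13-ps1 call was lost (log2 2.66, adjusted p = 0.0757), and likewise without G5TM replicate 3 (log2 3.50, adjusted p = 0.0524).

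Exact copies rose as well. Rpl38-ps2 (ENSMUSG00000080921) measured 411, 208 and 287 FPKM in G5TM, against 74.9, 38.8 and 29.8 FPKM in G5DM (log2 2.69 ± 0.36, SE; adjusted p = 0.000104), and Rps16-ps2 had a log2 difference of 2.61 ± 0.42 (SE; adjusted p = 0.000287). Rpl31-ps8 rose by 0.92, Rpl36a-ps2 by 0.98 and Rps6-ps4, a copy of the gene of the protein phosphorylated by S6 kinase, by 0.92 on the log2 scale. The genotypes overlapped for Rpl31-ps8 (1393, 782 and 817 reads in G5TM, 859, 536 and 638 in G5DM). They also overlapped for Rps6-ps4 (1164, 714 and 858 reads in G5TM, 797, 474 and 603 in G5DM). The single fall was that of Rpl26-ps6, with 0.282, 0.127 and 0.411 FPKM in G5TM, against 0.894, 2.34 and 1.36 FPKM in G5DM (log2 -0.96 ± 0.31, SE; adjusted p = 0.0168), while Rpl26 itself had 461, 292 and 226 FPKM in G5TM, against 289.5, 138 and 134 FPKM in G5DM (log2 0.83 ± 0.31, SE; adjusted p = 0.033). Rpl26-ps6 was therefore the 1 tested member called lower while its parent was called higher. The copy's values rest on 2, 1 and 3 reads in G5TM, against 7, 22 and 17 reads in G5DM. Without G5TM replicate 2 this call was lost, with 67 members higher and 0 lower.

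**Figure D2:**
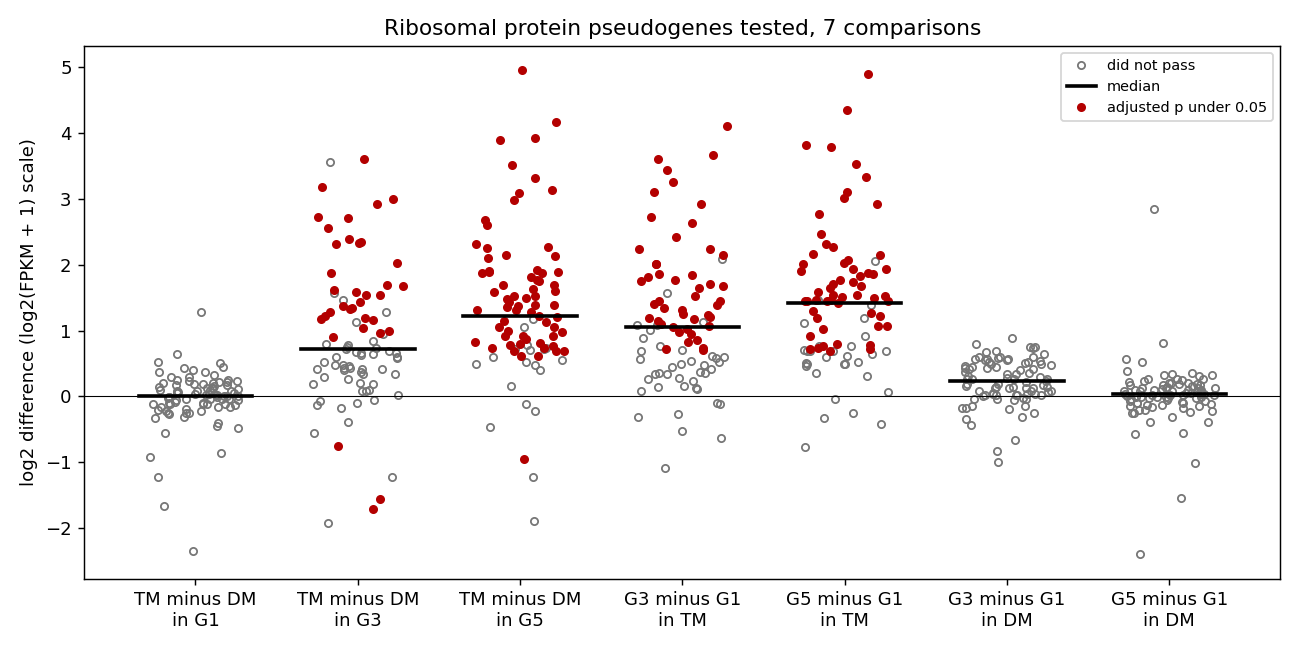
Difference on the log2(FPKM + 1) scale of each of the 87 tested pseudogenes in 7 comparisons, filled where the adjusted p was under 0.05, with a bar at the median. The medians are 0.01, 0.72 and 1.22 for TM minus DM in G1, G3 and G5, 1.06 and 1.43 for G3 and G5 minus G1 in TM, and 0.24 and 0.04 in DM, where no point is filled.

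Between generations the copies changed in TM fibroblasts and passed no test in DM fibroblasts. In TM, 47 of the 87 were higher in G3 than in G1 and none was lower (background 25.2% higher and 21.6% lower), with a median of 1.06. 1 member had an unadjusted p under 0.05 in the lower direction, where 3535 of the 13562 genes did, and voom called 39 higher and 1 lower. In G5 against G1, 57 were higher and none lower (background 26.0% and 23.5%), with a median of 1.43, and voom called 52 higher and 0 lower. No member was below 0 at an unadjusted p under 0.05, where 3698 of the 13562 genes were. Without G1TM replicate 1 the counts were 25 for G3 and 31 for G5, and without G1TM replicate 2 the count for G3 was 31. The G3TM and G5TM comparisons with G1TM share the G1TM libraries.

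Rpl38-ps2 measured 177, 420.3 and 335 FPKM in G3TM and 411, 208 and 287 in G5TM, against 32.3 and 33.8 in G1TM (log2 3.11 for G3 and 3.10 for G5). Rps16-ps2 measured 329, 734 and 669.6 FPKM in G3TM and 707, 402 and 623 in G5TM, against 73.0 and 91.3 in G1TM (log2 2.72 and 2.77). Both copies were thus higher in each of the 6 later TM libraries than in either G1TM library. Rpl15-ps2 again had the largest difference in G5, with 53.6, 23.6 and 52.4 FPKM in G5TM against 0.336 and 0.439 in G1TM (log2 4.90 ± 0.68, SE; adjusted p = 0.000241).

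In DM fibroblasts, 0 of the 87 copies were called in G3 against G1 (background 0.184% higher and 0.0295% lower), and 0 by voom. At an unadjusted p under 0.05 there were 0 members and 2784 of the 13562 genes. The median difference was 0.24, with 0.09 over all genes tested. In G5 against G1, 0 were called by limma (background 0.00737% higher and 0.0516% lower) and 0 by voom. At an unadjusted p under 0.05 there were 3 members, beside 689 of the 13562 genes. Among these 3 was Rps2-ps6, with 98.2, 32.9 and 24.2 FPKM in G5DM against 13.1 and 1.66 in G1DM (log2 2.85 ± 0.80, SE; adjusted p = 0.402). The other two were Rpl15-ps2, at 0.271, 0.603 and 0.170 FPKM in G5DM and 6.61 and 5.54 in G1DM, and Rpl15-ps3, at 10.8, 4.58 and 4.86 FPKM in G5DM against 22.8 and 17.9 in G1DM. These 3 members were named here after their values were seen, as they make up that count.

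Whether the TM minus DM difference itself changed between generations was tested as an interaction. For G3 against G1, 7 of the 87 copies had a larger difference in G3 and none a smaller one by limma (background 1.53% and 0.885%). A total of 32 had an unadjusted p under 0.05, all in the higher direction, where 2443 of the 13562 genes did, 1021 of them lower. Voom called 3 members higher. For G5 against G1, 30 had a larger difference and none a smaller one (background 11.5% and 8.33%), and voom called 26 higher. At an unadjusted p under 0.05 there were 44 members, all higher, and 5250 of the 13562 genes, 2501 of them lower. Rps19-ps6 had interactions of 3.48 ± 0.58 (SE; adjusted p = 0.0079) in G3 and 4.00 ± 0.55 (SE; adjusted p = 0.00112) in G5, and Rpl39-ps of 3.47 ± 0.64 (SE; adjusted p = 0.0147) and 4.03 ± 0.61 (SE; adjusted p = 0.00195). The counts depended on single libraries, from 2 to 17 members for G3 and from 9 to 48 for G5 when 1 library was left out.

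Copies and their parents often, but not always, passed the test together. Among the 87 tested members, 21 were higher in G3TM along with their parent, 11 were higher while the parent did not pass, and 28 did not pass although the parent was higher. The other members of G3 were 3 that were lower beside a parent that did not pass and 24 where neither passed. In G5, 59 were higher along with their parent, 8 while the parent did not pass, 15 did not pass although the parent was higher, 1 was lower beside a higher parent and in 4 neither passed. The member's log2 difference exceeded the parent's in 29 of 87 in G3 and in 27 of 87 in G5. Across the members, Spearman's rho between the parent's and the member's difference was 0.19 in G3 and 0.16 in G5 (n = 87 members of 42 parents, a description, since members share parents and libraries).

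Several copies of one family went different ways. Rps10-ps1 rose by 3.32 in G5 on the log2 scale and its parent Rps10 by 1.05, whereas the difference of Rps10-ps2 was 0.40 and did not pass (adjusted p = 0.355). Rpl15-ps2 and Rpl15-ps3 rose in G5, while their parent Rpl15 did not pass (log2 0.33 ± 0.37, SE; adjusted p = 0.458). Rpl17-ps3 rose by 1.70 and Rpl17 by 2.63, and the difference of Rpl17-ps10 was 0.72 and did not pass (adjusted p = 0.0619). In the families of Rpl38 and Rps16, exact copy and parent had like differences in G5: 2.69 for Rpl38-ps2 and 2.74 for Rpl38, and 2.61 for Rps16-ps2 and 2.56 for Rps16. Rpl31-ps8, equally exact, had 0.92 where Rpl31 had 2.56.

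**Figure D3:**
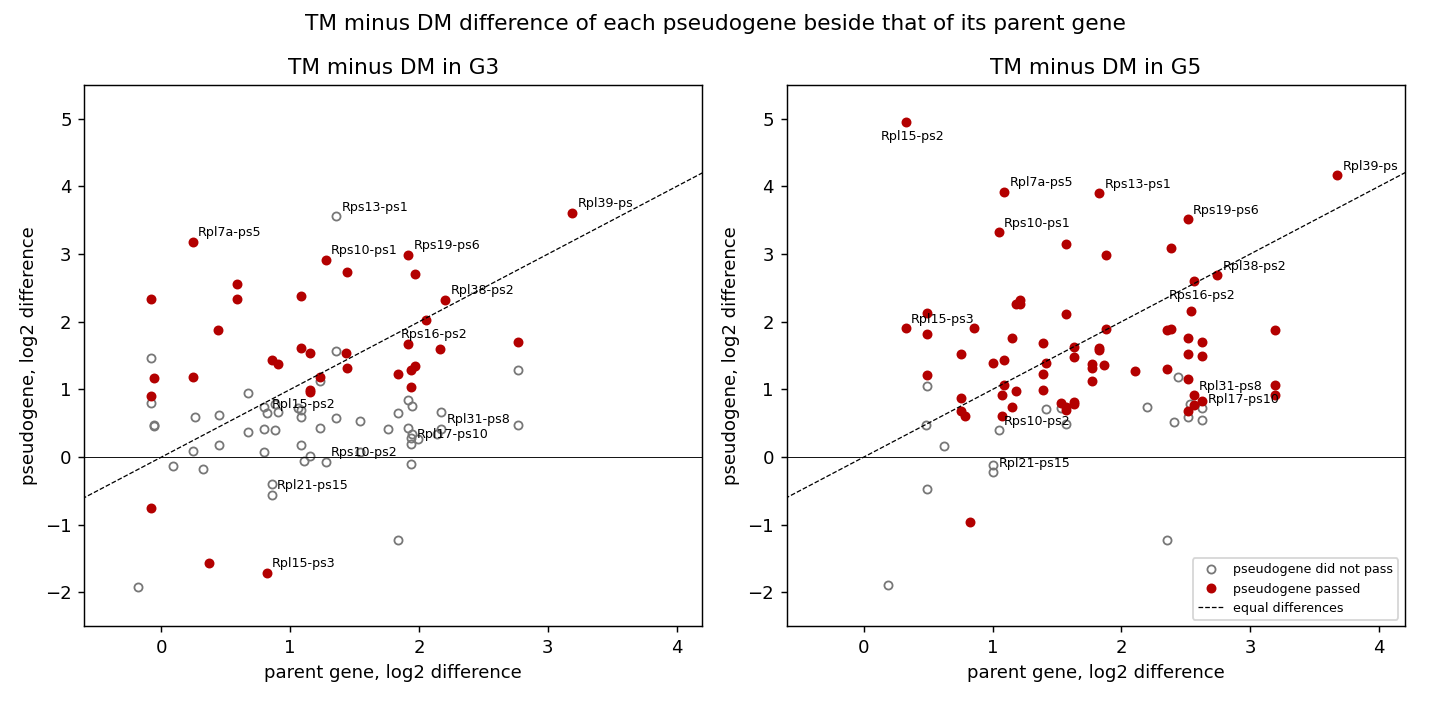
TM minus DM difference of each tested pseudogene (vertical axis) against that of its parent gene (horizontal axis), both on the log2(FPKM + 1) scale, in G3 and G5, with filled points for pseudogenes that passed the test. Points above the dashed line, 29 in G3 and 27 in G5, are copies whose difference exceeded the parent's. Rpl15-ps2 and Rpl7a-ps5 lie far above the line in G5, and Rps10-ps2 and Rpl21-ps15 below it.

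Some copies differed several-fold between replicates of 1 group. Of the 46 members with a mean of at least 5 FPKM, the number whose highest replicate exceeded the lowest by more than 3-fold was 0 in G1TM and 5 in G1DM, 8 in G3TM and 3 in G3DM, and 3 in G5TM and 9 in G5DM. Groups of 3 libraries tend to give a larger ratio than groups of 2, so these counts are not alike between groups. No share over all genes is given beside them. Rps13-ps1 (ENSMUSG00000066362) measured 143, 351 and 21.5 FPKM in the G3TM replicates and 566, 9.53 and 177 in G5TM, a span of 59.4-fold in G5TM. These values rest on 4967, 93 and 1599 reads in G5TM. Rps13-ps4 went with it at 2.42, 7.15 and 1.59 FPKM in G3TM and 13.6, 0.725 and 4.83 in G5TM. Copies of another parent on other chromosomes had the same order of replicates. Rps15a-ps5 had 36, 39 and 7 reads in G3TM and 75, 5 and 17 in G5TM. Rps15a-ps7 had 107, 127 and 54 reads in G3TM and 187, 36 and 70 in G5TM. Rps13-ps2 was highest in the G3TM and G5TM replicate where Rps13-ps1 was lowest, at 9.48, 3.90 and 45.1 FPKM in G3TM and 9.74, 30.4 and 23.0 in G5TM. Rps13 itself had 107, 119 and 208 FPKM in G3TM and 142, 134 and 133 in G5TM, with no step of that size in the parent. The share of the family's reads on copies ran from 5.54% to 37.7% in G3TM and from 5.07% to 45.3% in G5TM.

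The Rpl15 copies also stepped between replicates. Rpl15-ps2 measured 9.78 and 0.169 FPKM in the G3DM replicates, from 115 and 2 reads, and Rpl15-ps3 41.4 and 8.84 FPKM in the same libraries. Both Rpl15 copies were therefore high in G3DM replicate 1 and low in replicate 2. So was Rps2-ps6, a copy of another parent on another chromosome, with 347 and 39 reads. Rps26-ps1, a copy of the gene of a protein at the mRNA exit site, had 23.7, 11.7 and 13.1 FPKM in G5TM, against 212, 18.4 and 53.4 FPKM in G5DM, and 95.8 and 11.4 FPKM in G1DM. Its G5 difference was -1.89 ± 0.77 (SE; adjusted p = 0.0502) and did not pass. Rpl34-ps1 stood out in 1 library, G1DM replicate 1, with 31.5 and 38.5 FPKM in G1TM and 203 and 33.04 in G1DM. Rps13-ps2, Rps13-ps4, Rps15a-ps5, Rps15a-ps7, Rps26-ps1, Rpl34-ps1 and Rps6-ps4 were named after their values were seen.

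**Figure D4:**
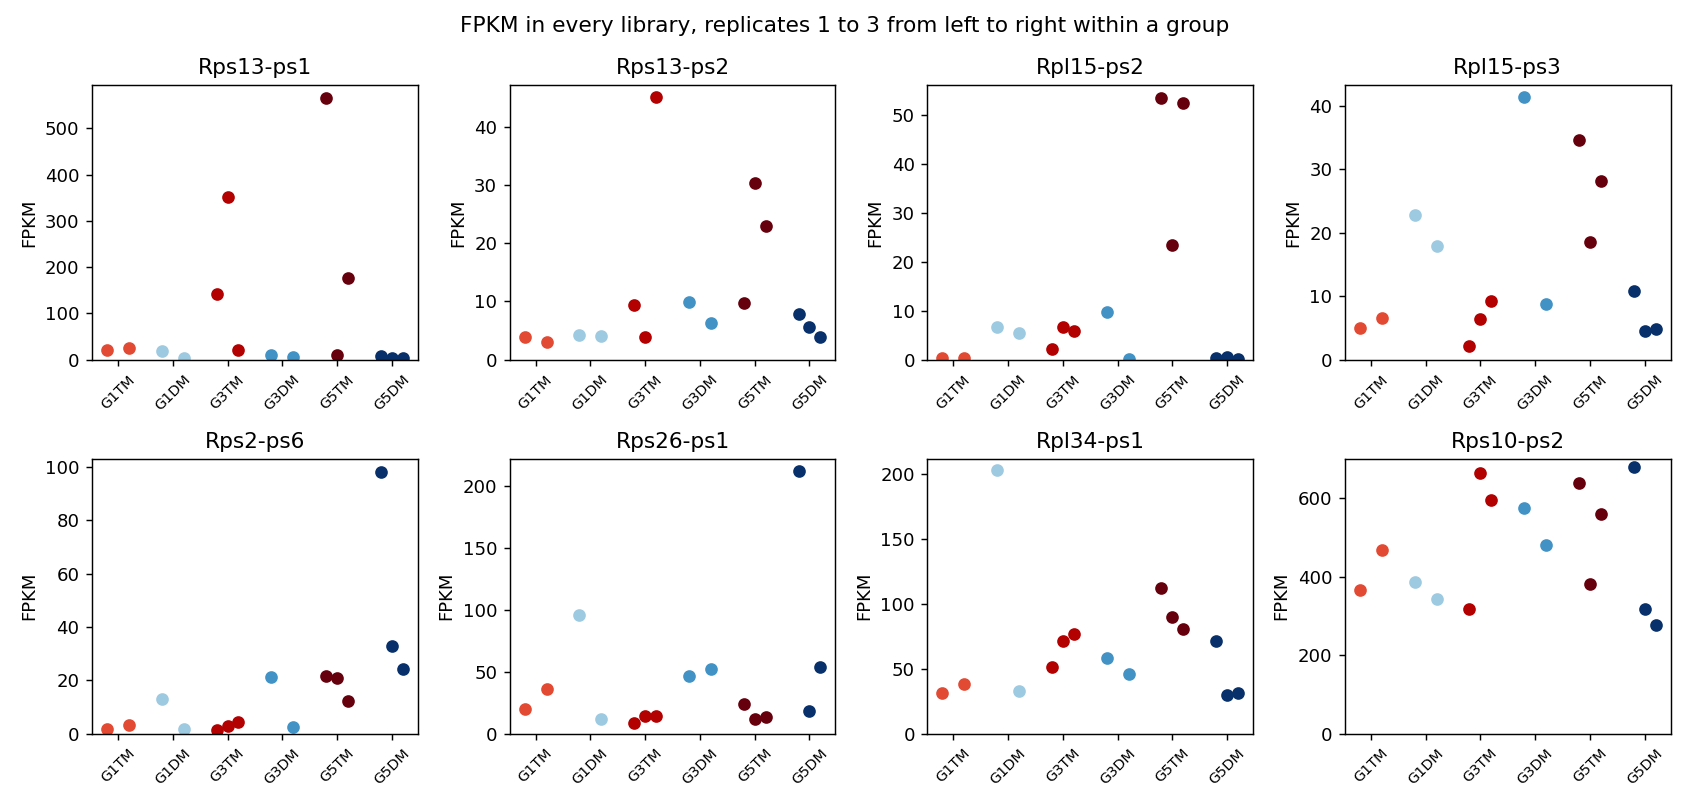
FPKM in every library for 8 pseudogenes, with replicates from left to right within a group. Rps13-ps1 spans 9.53 to 565.6 FPKM within G5TM, Rpl15-ps2 0.169 to 9.78 within G3DM, and Rpl34-ps1 33.04 to 203 within G1DM, whereas Rps10-ps2, shown for comparison, stays within 276 to 681 in all libraries.

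The level of a copy went with its likeness to the parent, a feature the choice of members did not use. Identity to the parent's coding sequence had a median of 98.1% and a lowest value of 50%. Rpl13-ps1, Rpl19-ps3, Rps7-ps2 and Rpl18-ps1, named here for this, lay at 50% to 52.2%. Their longest runs shared with the parent mRNA were 9 or 10 bases. Their listed transcripts thus show no clear copy of the parent, though they are counted among the 38 below 95%. The 8 members identical to it (Rps16-ps2, Rpl38-ps2, Rpl31-ps8, Rpl36a-ps2, Rpl28-ps1, Rps6-ps4, Rpl15-ps3 and Rpl10-ps1) had a median level of 73.4 FPKM and lay above 0 in all 15 libraries. The 75 members between 98% and 100% had a median of 3.68 FPKM, the 42 between 95% and 98% a median of 0.132, and the 38 below 95% a median of 0.0744. Spearman's rho between identity and mean FPKM was 0.69, and it was 0.74 between the longest run of bases shared with the parent mRNA and mean FPKM. Both are descriptions over the 163 members, which share libraries and parents, and reads shared with the parent move with both measures, so their part cannot be told apart from expression of the copy. Exceptions stood at both ends. Rps10-ps2, the highest, was not an exact copy, at 98.6% identity, and 73.8% of its 100-base windows occurred in Rps10 mRNA. Its longest open frame closed by a stop codon had 19 codons, against 165 in Rps10. Frames that reach the end of the listed copy without a stop were not counted. The listed copy has 496 bases and the parent's coding sequence 498, so a loss of the frame is not shown. Rpl39-ps shared no 100-base window with Rpl39 or any other GENCODE transcript, and nor did Rpl26-ps6, which is 89.5% identical to Rpl26. Their longest runs shared with the parent mRNA were 96 bases in Rpl39-ps, which is itself only 151 bases long, and 29 bases in Rpl26-ps6.

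An open reading frame at least as long as the parent's and closed by a stop codon was found in 69 members, with a median of 2.04 FPKM. It was not found in 94, with a median of 0.219. Frames that reach the end of the listed copy without a stop were not counted, so the 94 are not all broken frames. Rps13-ps2, for example, was scored at 8 codons, though its 453 bases all match the parent. Placement in the genome was less graded. The 20 members within another gene on the same strand had a median of 2.29 FPKM, the 45 within a gene on the other strand only a median of 0.772, and the 98 within no other gene a median of 0.563. Strand use in the counting is not stated, so for the 65 members inside a gene the reads of copy and host cannot be told apart. Among tested members, Spearman's rho between the share of windows found in the parent mRNA and the TM minus DM difference was -0.13 in G3 and 0.13 in G5 (n = 87, a description).

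**Figure D5:**
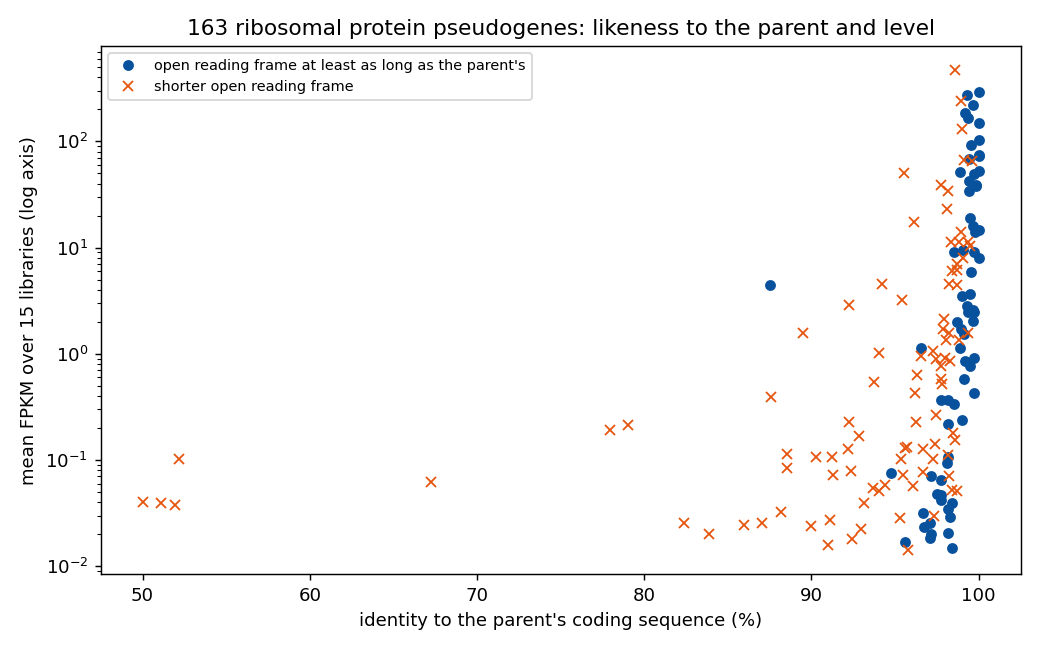
Mean FPKM over 15 libraries (log axis) against identity to the parent's coding sequence for the 163 pseudogenes. Circles are copies with an open reading frame, closed by a stop codon, at least as long as the parent's. Crosses are the rest, which include copies listed without their stop codon. Levels above 100 FPKM occur only at identities above 98%, and the 8 identical copies have a median of 73.4 FPKM.

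The remaining 76 members stayed below the filter, reached at most 1.76 FPKM in any library, and had a median of 9.5 reads over all 15 libraries together, so values of single copies among them rest on few reads. In a fit with no filter, which tested all 163 members, 9 of these 76 were higher and 4 lower in G5TM than in G5DM (background without the filter 12.1% higher and 14.8% lower), and 2 were higher and 0 lower in G3TM than in G3DM (background 5.8% higher and 5.42% lower). With 0 lower in G3 by limma, 2 were lower there at an unadjusted p under 0.05, for which no share over all genes is given. Rps6-ps3 was higher in both, from 9, 11 and 10 reads in G3TM, against 0 and 2 reads in G3DM, and from 12, 7 and 10 reads in G5TM, against 0, 0 and 0 reads in G5DM (adjusted p = 0.00957 in G3 and 0.0013 in G5). Rpl7a-ps9 was lower in G5, from 0 reads in all G5TM libraries, against 2, 15 and 7 reads in G5DM (adjusted p = 0.0188). Other calls rest on single reads: Rps13-ps6, called lower in G5, had 0 reads in the G5TM libraries, against 0, 1 and 1 reads in G5DM (adjusted p = 0.0455). These 3 copies were named after their values were seen. Rpl12-ps1 (ENSMUSG00000080054, chr1:36957930-36958427), a copy of the gene of a protein at the base of the ribosomal stalk, was also among the 76 members below the filter. It was listed at 0 in 13 libraries and measured 0.136 FPKM in G3TM replicate 2 and 0.120 FPKM in G5TM replicate 3. Its parent Rpl12 measured 300.4, 569 and 483 FPKM in G3TM, against 6.19 and 5.25 FPKM in G3DM, and 609.7, 382 and 441 FPKM in G5TM, and 5.41, 3.98 and 3.84 FPKM in G5DM (log2 6.03 in G3 and 6.45 in G5). Rpl12 had the largest TM minus DM difference of the ribosomal protein genes in G3 and in G5, while its copy stayed below the filter and was not called in the fit without it.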

How the data were processed

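PolyA RNA of mouse embryonic fibroblasts was sequenced in 15 libraries, grouped by the labels' titles into G1TM, G1DM, G3TM, G3DM, G5TM and G5DM. One table of FPKM, deposited by the authors, gave all values. Tools listed without a role in the submitters' processing notes are HISAT2 2.0.5, fastp, DESeq2 1.20.0, featureCounts 1.5.0-p3 and CASAVA 1.8. A genome build and the treatment of multiply aligned reads are not given in the sources used here. Of the 163 members, 161 had the coordinates of GENCODE vM21 (GRCm38), from which sequences and overlaps with other genes were taken.

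Read numbers were recovered from FPKM and listed length, and 100% of values came out whole (tolerance 0.05). They totalled 17448588 to 29571111 per library, and the FPKM of 1 read of a gene of 1 kilobase, 0.0336 to 0.0679, sets the precision of low values. Genes with at least 1 FPKM in at least 2 libraries (13562) entered 1 linear model of log2(FPKM + 1) with 6 group means (limma 3.58.1, R 4.3.3, empirical Bayes with trend). Two-sided p-values were adjusted over all genes tested by the Benjamini-Hochberg method and called under 0.05. The fit was tested on simulated data. Tables and figures were made with Python 3.11.15 (scipy 1.17.1, matplotlib 3.10.9, pandas 2.3.3, numpy 2.4.6). Identity was counted over the parent's coding sequence by alignment, and sharing of sequence over windows of 100 bases.

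The members, gene lists and tests were chosen with earlier results of these data known. Named members were the 12 with the highest mean, up to 8 largest rises and 8 largest falls per comparison among called members with a group mean of at least 2 FPKM, copies of Rpl12, families with at least 4 members and the parents, though some of these are not reported here. Alternatives changed the pseudocount, the filter, the scaling, the samples in the fit, the replicate block and single libraries, and voom on recovered reads was added after the data were seen. Same-numbered replicates were not taken as pairs, since the labels give no shared origin.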

Additional observations from a re-analysis of the deposited data

Results flagged for a closer look

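The TM minus DM difference of some copies differed between generations by the interaction test in limma. In G3 against G1, 7 of the 87 tested members had a larger difference (background 1.53% higher). Among them were Rps19-ps6 with a log2 interaction of 3.48, Rpl39-ps with 3.47, Rpl7a-ps5 with 3.34 and Rps10-ps1 with 2.96.

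In G5 against G1 the number was 30 (background 11.5% higher). The largest was Rpl15-ps2 with 7.31, whose sign differed between generations: all G5TM libraries lay above all G5DM libraries, and both G1TM libraries lay below both G1DM libraries. Its G1 difference did not pass (limma, adjusted p = 0.16), and its G3DM replicates had 115 and 2 reads. A reversal is therefore not established. Rpl7a-ps5 followed with 4.08, Rpl39-ps with 4.03, Rps19-ps6 with 4.00 and Rpl15-ps3 with 3.57. Rps10-ps1 had 3.36, Rpl9-ps7 3.07 and Rpsa-ps2 2.82. Smaller interactions were those of Rpl38-ps2 with 2.58, Rps16-ps2 with 2.56, Rpsa-ps10 with 1.89 and Rpl17-ps3 with 1.61. Both interactions span the division between the 6 libraries of G3TM and G5TM and the other 9.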

How the results depend on the processing

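Of 30 pairs of a named member and a comparison, 27 stayed on their side of the threshold with the same sign under all 25 alternatives, and none reversed. The exceptions were Rpl15-ps3 in G3 (adjusted p 0.0116 to 0.448), Rpl26-ps6 in G3 and Rps13-ps1 in G5. The fall of Rpl26-ps6 in G5 was not among the 30 pairs. All 30 were taken from the largest differences called in the main fit. Leaving out a library of a group not compared alters only the shared spread and the genes tested. A high number was thus likely beforehand and is no separate support for the calls. With 1 library left out, the number of members called ranged from 0 to 1 for TM minus DM in G1, 18 to 40 in G3 and 44 to 75 in G5, 25 to 49 for G3 minus G1 in TM and 31 to 60 for G5 minus G1 in TM, and from 2 to 17 for the G3 interaction and 9 to 48 for the G5 interaction. The interaction for G3 fell to 2 without G1TM replicate 1 or G3DM replicate 2 and to 3 without G1TM replicate 2 or G1DM replicate 1, and was 17 without G3TM replicate 1 or G5DM replicate 1. That for G5 fell to 9 without G1TM replicate 1, 14 without G1DM replicate 1 and 18 without G1TM replicate 2 or G5DM replicate 2, and was 48 without G5DM replicate 1. Fitting only the groups compared gave 1 call, lower, in G1 and 14 for the G3 interaction. Without a filter the interactions had 4 (G3) and 17 (G5) calls, with more genes tested, and voom on recovered reads gave 3 for G3. The cause of the other changes was not tested. Shares over all genes with voom or with 1 library left out are not given, so those counts show only how the members' counts move. With the replicate block the counts were 0 in G1, 35 in G3 and 66 in G5 for TM minus DM, 0 and 0 between generations in DM, 42 and 55 in TM, and 6 and 23 for the interactions. Same-numbered samples had correlations of their deviations from the group mean of -0.541 to 0.378 in 33 pairs, 9 of them above 0.1. In groups of 2 the deviations are exact opposites, so these pairs are not independent. No differently numbered pairs were set beside them, so whether the numbers mark pairs cannot be decided from these values. The edgeR and DESeq2 alternatives were not run, since the deposited values are FPKM and not counts. Reads shared between copy and parent limit every level given. The 76 members below the filter were tested only in the fits with a lower filter or none; with none, 13 of them were called in G5 and 2 in G3, some on single reads.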
